A study of Mus musculus with 6 samples.

Results

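Of the 3869 circular RNAs (circRNAs) listed for differentiating mouse preadipocytes, 414 (10.7%) spanned under 1000 bp of genome between their 2 joined ends, and these short circRNAs are described here. They were chosen by the end minus the start of each listed position alone, whatever their level or their entry in circBase, a public catalogue of circRNAs. Circular RNAs arise by back-splicing, in which a downstream splice site is joined to an upstream one, so that the RNA has no free ends and resists exonucleases. A short genomic span leaves room for few introns, so such circles often hold a single exon, whereas a long span usually holds several exons whose introns may be spliced out. Brown adipocytes, which burn lipid to make heat, form in culture from precursors after induction with adipogenic hormones. Span is a distance on the genome and not the length of the circle, since exons were not analysed here.

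The cells were stromal vascular cells of 6-week-old C57BL/6 mice, from a depot that the labels call inguinal BAT, and the labels call them BAT preadipocytes. Day 0 cells, for which the labels give proliferation as the time, had grown in growth medium with serum. Day 4 cells had then had insulin, dexamethasone and 3-isobutyl-methylxanthine for 4 days, and day 8 cells a further 4 days of insulin and the thyroid hormone T3. All groups came from the same kind of culture, which can hold other stromal and vascular cells, and the labels name no genotype. Each day had 2 libraries, made from total RNA from which ribosomal and linear RNA had been removed. No label ties the libraries of a day to separate cultures or mice, so p-values cover only the spread of these samples, and that spread may be technical. Host genes were not analysed here, so the cell type could not be checked against its markers. In such bulk samples, fewer cells of a type and less RNA per cell cannot be told apart.

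The deposited values are CPM, which scale the reads of a circRNA to the reads of its library on all listed circRNAs, and each was a whole multiple of 1 step, taken here as 1 read on the back-splice junction. The libraries held 40384 to 45733 such reads, of which 4976 to 6711 fell on short circRNAs, and 1 read was worth 21.9 to 24.8 CPM. No value was 1 step, so a circRNA listed at 0 may have had 1 read. Every listed circRNA had both libraries of 1 day or more above 0, a selection that favours differences between days where reads are few.

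Most short circRNAs overlapped no other entry of the table, except in the shortest class. Their median span was 533 bp, with quartiles of 371 and 730 bp. There were 33 under 250 bp, 155 of 250 to 500 bp, 134 of 500 to 750 bp and 92 of 750 to 1000 bp, each class without its upper limit. No other listed circRNA overlapped 303 of the 414 (73.2%) on the same strand, against 43.4% of the circRNAs of 1 kb or more. This share was 48.5% in those under 250 bp, 77.4% at 250 to 500 bp, 69.4% at 500 to 750 bp and 80.4% at 750 to 1000 bp, and it was 69.8% in the neighbouring class of 1 to 2 kb. A longer circRNA overlapped 101 (24.4%), and 93 (22.5%) shared at least 1 back-splice end with a longer one. These shares describe the table and were not tested. In circBase were 280 (67.6%), against 67.4% of those of 1 to 2 kb, 62.6% of those of 1 kb or more and 46.3% of those of 50 kb or more. They lay on all 20 chromosomes of the table, with 229 on the plus and 185 on the minus strand. Chromosome 8 held the most, 39 of its 203 circRNAs (19.2%), and chromosome 12 had the lowest share, 9 of 178 (5.06%).

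The limits of the class were the following. The shortest were mmu_circ_0001522 (chromosome 6, 124655533 to 124655674, minus strand, 142 bp), mmu_circ_0000455 (chromosome 13, 42150769 to 42150911, plus strand, 143 bp) and a circRNA without a circBase identifier (chromosome 1, 95182373 to 95182517, plus strand, 145 bp). The last had no entry above 0 at days 0 and 8, and had 131 and 149 CPM at day 4. Just inside 1000 bp lay an entry on chromosome 2 of 995 bp with 2 reads in each day 4 library and none elsewhere. Another, on chromosome 1 with 998 bp, was listed at 0 at day 4 and had 122 and 142 CPM at day 8. Just outside lay mmu_circ_0000876 on chromosome 18 with 1000 bp and mmu_circ_0011377 on chromosome 4 with 1003 bp.

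A typical short circRNA was rare. The median over short circRNAs of the mean level in the 6 libraries was 96.3 CPM (4 reads), against 103.6 CPM (4.33 reads) for those of 1 kb or more. A mean under 10 reads was found in 313 (75.6%), and 136 (32.9%) were above 0 in all 6 libraries, against 32.2% of the longer ones. A 10-read filter (10 or more reads in 2 or more libraries) kept 146 (35.3%), and a circRNA can pass it through its highest day alone. Within a library, the median of short circRNAs was set against that of longer ones, each as log2(median CPM + 43.7). The short minus the longer value averaged -0.13, from -0.49 to 0.20, and was below 0 in 3 of 6 libraries. This difference gave p = 0.25 in an exact two-sided sign-flip test, and its sign turned under the 10-read filter (0.0232). It was 0 in day 0 replicate 2 and in day 8 replicate 1. With these ties the test could not reach a p under 0.05, so it cannot decide whether the levels differ. Spearman's rho over the 414 short circRNAs was 0.722 between the libraries of day 0, 0.607 at day 4 and 0.724 at day 8, and 0.471 to 0.595 between libraries of different days. These points share their libraries and the detection rule of the table.

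Short circRNAs took their largest share of the circRNA reads at day 0 and their smallest at day 4. The share of CPM on them was 15.6% and 15.4% in the day 0 libraries, 11.98% and 12.3% at day 4, and 14.2% and 13.6% at day 8. The 95% Wilson intervals, which cover counting error only, ran from 15.0 to 15.9% over the day 0 libraries, from 11.7 to 12.6% over those of day 4 and from 13.3 to 14.5% over those of day 8. The libraries of the 3 days did not overlap, with means of 15.5% ± 0.150 (SD, n = 2), 12.1% ± 0.244 and 13.9% ± 0.385. The smallest p that 2 libraries against 2 allow in an exact two-sided permutation test is 0.333, and each of the 3 comparisons reached it. The share of circRNAs of 50 kb or more moved the other way from day 0, with 3.49% ± 0.101, 5.19% ± 0.489 and 4.73% ± 0.143 (exact permutation p = 0.333 in each comparison). Longer classes in between were not alike. The neighbouring class of 1 to 2 kb had its lowest mean at day 8 (9.58% ± 0.398, 8.97% ± 0.0661 and 8.80% ± 0.353), and its days 4 and 8 overlapped. Those of 2 to 5 kb had the same order of days as the short ones (17.9% ± 0.727, 16.4% ± 0.442 and 17.0% ± 0.120), as had those of 5 to 10 kb (21.7% ± 0.310, 20.6% ± 0.2501 and 21.0% ± 0.0726), with no overlap between days. Those of 20 to 50 kb had the opposite order (12.7% ± 0.103, 16.9% ± 0.305 and 15.2% ± 0.140). The order of days was thus not particular to circRNAs under 1 kb. Shares sum to 100% over the table, so a lower share of one class raises those of others.

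Fewer short circRNAs were detected at day 4. The day 0 libraries held 319 and 320 above 0, those of day 4 held 275 and 257, and those of day 8 held 316 and 317. The corresponding numbers with at least 5 reads were 232 and 220, 173 and 166, and 199 and 202. The day 4 libraries were the lowest in both counts and overlapped with no other day (exact permutation p = 0.333), while the number of all circRNAs above 0 was 2711 and 2853 at day 0 and 2661 and 2834 at day 4. Both libraries listed 61 of the 414 short circRNAs at 0 on day 0, 92 on day 4 and 62 on day 8. Over all 3869 circRNAs these numbers were 675, 679 and 511. Of the short circRNAs seen on a single day alone, 28 were of day 0, 11 of day 4 and 23 of day 8. Over all 3869 these were 154, 122 and 212, and the shares were not tested.

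**Figure D1:**
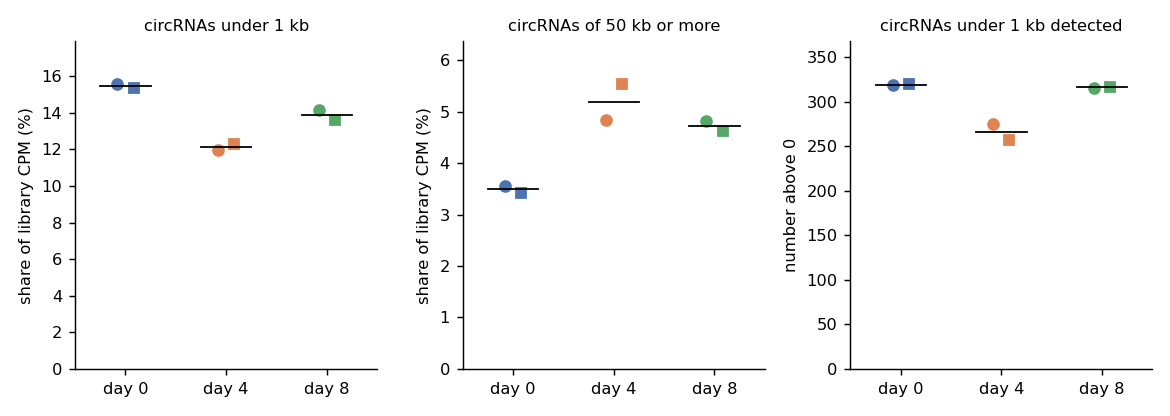
The vertical axes give the share of each library's CPM on circRNAs under 1 kb (left) and of 50 kb or more (middle), in percent, and the number of circRNAs under 1 kb above 0 (right), by day. Circles are replicate 1, squares replicate 2 and lines the mean of the 2 libraries. The day 4 libraries lie lowest on the left (11.98 and 12.3%) and on the right (275 and 257).

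The order of days differed between the 4 most abundant short circRNAs and all others together. These 4 held 3.41% ± 0.159 (SD, n = 2), 4.07% ± 0.112 and 4.08% ± 0.203 of CPM at days 0, 4 and 8. Without them, short circRNAs held 12.1% ± 0.00816, 8.08% ± 0.133 and 9.82% ± 0.182. The 10 with the highest mean together held 5.12% ± 0.166 (SD, n = 2), 5.16% ± 0.150 and 5.64% ± 0.275 of CPM at days 0, 4 and 8. Without these 10, short circRNAs held 10.3% ± 0.0153, 6.99% ± 0.0947 and 8.27% ± 0.1097, and the libraries of the 3 days did not overlap. By span, circRNAs of 500 to 750 bp went from 6.35% ± 0.259 at day 0 to 4.30% ± 0.0300 at day 4 and 5.32% ± 0.242 at day 8. Those of 250 to 500 bp held 5.24% ± 0.140, 4.46% ± 0.511 and 4.10% ± 0.0431, and those of 750 to 1000 bp 2.43% ± 0.162, 1.92% ± 0.0201 and 2.53% ± 0.0346. The 33 under 250 bp held 1.45% ± 0.0873, 1.48% ± 0.217 and 1.95% ± 0.0651, where days 0 and 4 overlapped and both day 8 libraries were higher. With 2 libraries a day, none of these comparisons can reach an exact p under 0.333.

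Some short circRNAs share their locus with longer circles. Of the 2511 loci formed by joining circRNAs that overlap on the same strand, 93 held both kinds, with 101 short and 184 longer circRNAs. Within these 93, short circRNAs made 58.1% and 57.4% of the summed CPM at day 0, 51.9% and 50.4% at day 4, and 58.1% and 56.4% at day 8. Both day 4 libraries lay below all others, and the libraries of days 0 and 8 overlapped. The means were 57.8% ± 0.489, 51.1% ± 1.06 and 57.2% ± 1.23 (SD, n = 2; exact permutation p = 0.333 for day 4 against day 0). Short circRNAs of these loci held 6.60% ± 0.103 of all CPM at day 0 and 5.62% ± 0.0698 at day 4, and the longer ones held 4.82% ± 0.172 and 5.37% ± 0.161. The short members thus took a smaller part of the same loci at day 4, while the longer ones took a larger part of all CPM. Without the locus with the highest summed CPM, the difference between days 4 and 0 was -8.28 percentage points, against -6.66 with it.

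**Figure D2:**
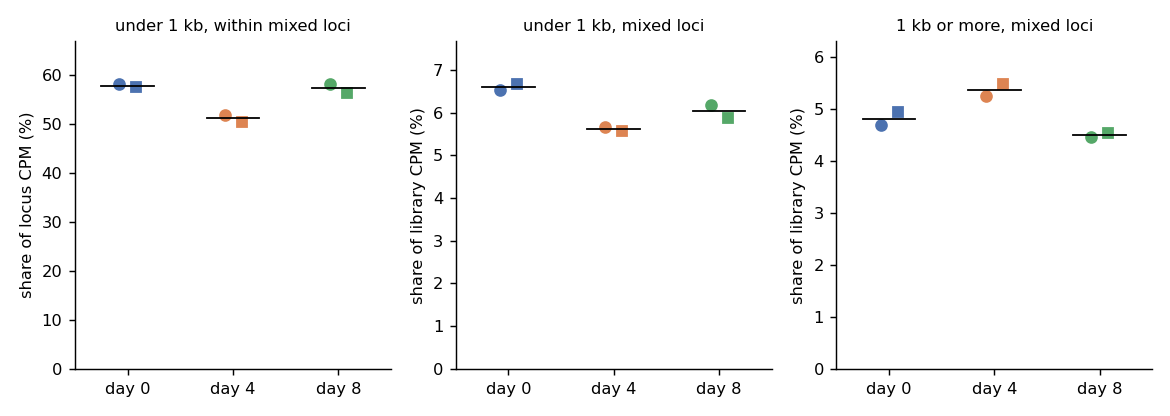
For the 93 loci that hold both a short and a longer circRNA, the vertical axes give the part of the summed CPM of these loci on circRNAs under 1 kb (left) and the share of all CPM on their short (middle) and longer (right) circRNAs, in percent, by day. Circles are replicate 1, squares replicate 2 and lines means. On the left both day 4 libraries (51.9 and 50.4%) lie below the other 4.

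Day 4 against day 0 spans the induction phase. More short circRNAs were lower than higher at day 4. Both day 4 libraries lay below both day 0 libraries for 157 short circRNAs and above them for 44, where the background over all 3869 was 24.5% lower and 21.7% higher. The median log2 fold change, on the scale of log2(CPM + 43.7), was -0.48 for short circRNAs, 0 for all and 0.49 for those of 50 kb or more. It was -0.55 under 250 bp, -0.44 at 250 to 500 bp, -0.67 at 500 to 750 bp and -0.39 at 750 to 1000 bp, then -0.25 at 1 to 2 kb and 0.32 at 20 to 50 kb. On this scale all 4 classes under 1 kb were thus below every class of 1 kb or more. This order did not hold among circRNAs above 0 in all 6 libraries. Their median log2 ratio of the means was 0.14 under 250 bp, -0.44 at 250 to 500 bp and -0.54 at 500 to 750 bp. It was -0.13 at 750 to 1000 bp, -0.22 at 1 to 2 kb and -0.18 at 2 to 5 kb. With the 10-read filter, the median log2 fold change was -0.05 under 250 bp and -0.13 at 1 to 2 kb. Among the 136 short circRNAs above 0 in all 6 libraries, 95 had a lower mean at day 4 and 41 a higher one, with a median log2 ratio of the means of -0.40. Among all 1248 such circRNAs, 634 were lower and 614 higher, with a median of -0.02. Counting a day listed at 0 in both libraries as 3 reads gave a median of -0.50 over 340 short circRNAs.

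Single short circRNAs were tested with limma across all 3869, with Benjamini-Hochberg adjustment, and a circRNA was called at an adjusted p under 0.05. At day 4, 47 of the 414 were called, 11 higher and 36 lower, where the background was 8.12% (3.85% higher and 4.26% lower). The 11 called higher were all listed at 0 in both day 0 libraries, and 29 of the 36 called lower were listed at 0 in both day 4 libraries. Of the 47, 40 had a mean under 10 reads. Among those called higher was the 995 bp entry on chromosome 2, with 2 reads in each day 4 library (limma adjusted p = 0.00178, SE 0.0769). The 145 bp entry on chromosome 1 was called higher too (limma adjusted p = 0.00274, SE 0.205). A low adjusted p was thus also found near the detection limit. Among the 146 kept by the 10-read filter, 8 were called, all lower (background 3.65%, with 2.27% higher and 1.39% lower). These calls rested on the whole set of libraries. Without either day 8 library 31 of the 414 were called, and the fit of days 0 and 4 alone called 4. Without limma's mean-variance trend 0 were called, with 108 at an unadjusted p under 0.05. With the 10-read filter, none of these 8 calls held, whichever single library was left out.

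**Figure D3:**
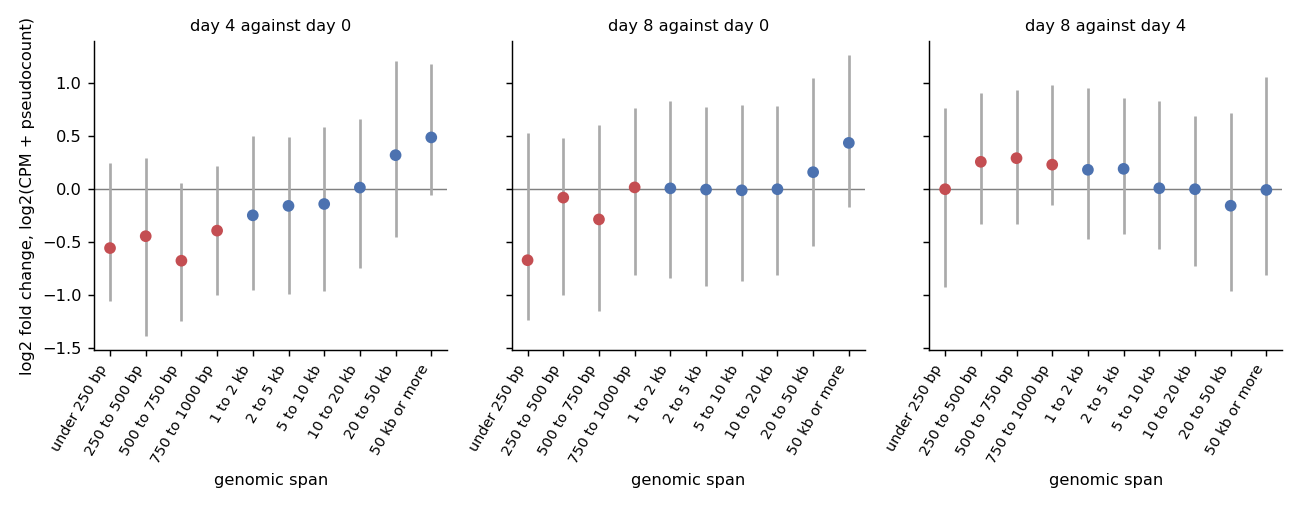
Each point is the median log2 fold change, on log2(CPM + 43.7), of the circRNAs of 1 class of genomic span, red under 1 kb and blue above, and the grey line runs from the first to the third quartile. In the left panel, day 4 against day 0, the medians run from -0.67 at 500 to 750 bp to 0.49 at 50 kb or more. In the middle panel, day 8 against day 0, the median is -0.67 under 250 bp and between -0.28 and 0.44 in the other classes. With the 10-read filter, not drawn, the median under 250 bp is -0.05 at day 4 and 0.21 at day 8 against day 0.

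Calls of the single circRNAs described below were sensitive in the same way. Of 37 such calls, over the 3 comparisons, 6 held with any library left out and 3 under every alternative that could be run, and none changed direction. These 6 belonged to 3 rare circRNAs, with at most 9 reads in any library. Without the mean-variance trend 29 of the 37 ended, and in the fit of the 2 compared days alone 22 did. A pseudocount of 1 or 0.1 CPM ended 11, the 10-read filter 5 and another scaling 2. Below, a call that ended without either of 2 libraries ended when 1 or the other was left out, singly. Among the abundant short circRNAs, mmu_circ_0000529 (chromosome 14, 47635952 to 47636470, plus strand, 519 bp) was lower after day 0. It had 5313 and 4068 CPM at day 0, 1246 and 1931 at day 4, and 1519 and 1563 at day 8. Both day 0 libraries lay above the other 4, and days 4 and 8 overlapped. The log2 fold change was -1.56 at day 4 (SE 0.26, adjusted p = 0.0178) and -1.57 at day 8 (SE 0.26, adjusted p = 0.0123). The day 4 call held without day 4 replicate 2 and ended without any other library (adjusted p up to 0.159), and the day 8 call without either library of day 0 or day 8 (up to 0.155). Without the mean-variance trend neither was called (adjusted p = 0.0848 at day 4 and 0.0675 at day 8), and the fit of days 0 and 4 alone ended the day 4 call (0.0945). Of the 2 longer circRNAs that overlap mmu_circ_0000529 and share an end with it, the summed level was 232 and 218 CPM at day 0 and at most 124 CPM in the later libraries.

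The circRNA mmu_circ_0004992 (chromosome 14, 120724016 to 120724634, plus strand, 619 bp) was also highest at day 0. It had 3225 and 3293 CPM at day 0, 1574 and 1263 at day 4, and 1886 and 1634 at day 8. The day 0 libraries were nearly equal and the highest of the 6. It fell by 1.18 on the log2 scale at day 4 (SE 0.19, adjusted p = 0.0145) and by 0.88 at day 8 (SE 0.19, adjusted p = 0.0341). Leaving out either day 0 library, day 4 replicate 2 or either day 8 library ended the first call (adjusted p up to 0.101), and leaving out any library of day 0 or day 8 ended the second (up to 0.173), as did scaling by trimmed-mean-of-M-values factors (0.0697) and a fit without the mean-variance trend (0.132). The first call also ended without the mean-variance trend (adjusted p = 0.0876) and in the fit of days 0 and 4 alone (0.0764). The second also ended when the replicate number was added to the fit (0.0523). No other circRNA overlapped mmu_circ_0004992.

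Outside the naming rule, 3 further abundant members called at day 4 were picked after their values were seen. The circRNA mmu_circ_0008887 (chromosome 1, 64125281 to 64125908, minus strand, 628 bp) had 3388 and 2809 CPM at day 0, 1071 and 941 at day 4, and 1053 and 1398 at day 8. It was highest in both day 0 libraries and was called as lower at day 4 (-1.58 on the log2 scale, SE 0.22, adjusted p = 0.00853) and at day 8 (-1.31, SE 0.22, adjusted p = 0.0128). The circRNA mmu_circ_0007088 (chromosome 17, 88862053 to 88862603, plus strand, 551 bp) had 2668 and 3220.4 CPM at day 0, 940.2 and 594 at day 4, and 1494 and 1516 at day 8. Its day 8 libraries lay between those of days 4 and 0, and the call at day 4 (-1.91, SE 0.26, adjusted p = 0.00743) was not matched at day 8 (adjusted p = 0.0778). The circRNA mmu_circ_0001741 (chromosome 9, 3634439 to 3635157, plus strand, 719 bp) had 1299 and 1211 CPM at day 0, 481 and 248 at day 4, and 637 and 734 at day 8, with the same order of days and a call at day 4 alone (-1.73, SE 0.33, adjusted p = 0.0296). Each of these calls ended without either day 0 library. The highest adjusted p with a library left out was 0.0885 for mmu_circ_0008887 at day 4 and 0.103 at day 8, 0.0912 for mmu_circ_0007088 and 0.191 for mmu_circ_0001741. The call of mmu_circ_0008887 at day 4 also ended without either day 4 library and at day 8 without day 8 replicate 1. That of mmu_circ_0007088 ended without either day 8 library, and that of mmu_circ_0001741 without day 4 replicate 2 or either day 8 library. The last also ended with a pseudocount of 0.1 CPM (0.0571).

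A few short circRNAs were low at day 4 alone. The circRNA mmu_circ_0006760 (chromosome 17, 42514109 to 42514589, plus strand, 481 bp) had 975 and 1647 CPM at day 0, 284 and 99.0 at day 4, and 1200.4 and 948 at day 8. The libraries of days 0 and 8 overlapped and all lay above those of day 4. The log2 fold change was -2.60 at day 4 against day 0 (SE 0.47, adjusted p = 0.0244) and 2.36 at day 8 against day 4 (SE 0.47, adjusted p = 0.0322). Both calls ended when any library but day 4 replicate 1 was left out (adjusted p up to 0.192 and 0.276) and with pseudocounts of 1 or 0.1 CPM. Its 2 longer overlapping circRNAs had 371 and 460 CPM at day 0, 131 and 74.3 at day 4, and 245 and 166 at day 8. The circRNA mmu_circ_0002305 (chromosome 10, 58654914 to 58655563, minus strand, 650 bp) had 325 and 436 CPM at day 0, 109 and 99.0 at day 4, and 441 and 379 at day 8. It was called at day 8 against day 4 (log2 fold change 1.61, SE 0.36, adjusted p = 0.0485) and not at day 4 against day 0 (adjusted p = 0.0647), and its call held only without day 0 replicate 1 among the 6 libraries (adjusted p up to 0.162). A similar course, with both day 4 libraries at 0, was seen for mmu_circ_0001293 (chromosome 4, 141966372 to 141967259, minus strand, 888 bp), whose calls ended without any library (adjusted p 0.0932 to 0.175 against day 0). They also ended with pseudocounts of 1 or 0.1 CPM, and the call against day 0 with trimmed-mean-of-M-values factors (0.0517).

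Some other named falling members were seen at day 0 alone. The circRNA on chromosome 8 (74843325 to 74844141, plus strand, 817 bp, no circBase identifier) had 255 and 242 CPM at day 0, from 11 and 10 reads, and was listed at 0 in all 4 later libraries (adjusted p = 0.00614 at day 4 and 0.00408 at day 8). Those calls were lost without either day 8 library (adjusted p up to 0.0625 and 0.0635), and the first also without either day 4 library. Entries on chromosome 17 (31789085 to 31789513, minus strand, 429 bp) and chromosome 5 (64564627 to 64565135, plus strand, 509 bp), both without a circBase identifier, had 8 reads and 7 reads in each day 0 library and none later. Their calls at day 4 (adjusted p = 0.00388 and 0.00323) and at day 8 (0.00248 and 0.00215) held with any library left out. At day 4 neither was called in the fit of days 0 and 4 alone or without the mean-variance trend (adjusted p up to 0.0911 for both). A further one on chromosome 14 (47529786 to 47530052, plus strand, 267 bp) had 14 and 5 reads at day 0 and none later (adjusted p = 0.0231 and 0.0165), and its calls ended without any library of day 4 or day 8 (up to 0.174). Such entries lie close to the detection limit of 2 reads.

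Day 8 against day 0 spans the whole course. Short circRNAs moved in both directions, with 67 called, 28 higher and 39 lower, where the background was 12.3% (7.31% higher and 5.01% lower). Of the 28, 25 were listed at 0 at day 0, and 29 of the 39 were listed at 0 at day 8. A mean under 10 reads was found in 52 of the 67. Libraries did not overlap for 96 higher and 136 lower short circRNAs, against a background of 26.2% and 25%. The median log2 fold change was -0.11 for short circRNAs and 0 for all, and it was -0.67 in the 33 under 250 bp and 0.02 at 750 to 1000 bp. Under 250 bp the sign turned among members with more reads. The median was 0.21 over the 11 kept by the 10-read filter, with 8 above 0 and 3 below. Over the 10 above 0 in all 6 libraries, the median log2 ratio of the means was 0.18, with 6 higher and 4 lower. The median over all short circRNAs was -0.25 without day 0 replicate 1, -0.05 without day 8 replicate 2, -0.33 with the 10-read filter and -0.03 for spans under 2000 bp, and it stayed below 0 in every alternative run. Over the 136 short circRNAs above 0 in all 6 libraries, the median log2 ratio of the means was -0.36, with 80 lower and 56 higher. Over all 1248 such circRNAs it was -0.09, with 666 lower and 582 higher. Without the mean-variance trend 30 short circRNAs were called. The 10-read filter left 14 of 146 called, 5 higher and 9 lower (background 6.73%, with 4.31% higher and 2.41% lower). Without day 0 replicate 1 this count was 2, and without day 0 replicate 2 or either day 8 library it was 1.

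Of the members called higher, mmu_circ_0000635 (chromosome 15, 88641727 to 88642589, minus strand, 863 bp) was abundant throughout. It had 1555 and 2082 CPM at day 0, 2121 and 1956 at day 4, and 3724 and 4098 at day 8. Days 0 and 4 overlapped, and both day 8 libraries lay well above them. The log2 fold change was 1.10 against day 0 (SE 0.20, adjusted p = 0.0171) and 0.92 against day 4 (SE 0.20, adjusted p = 0.0412). The first call held without day 0 replicate 2 and ended without any other library (adjusted p up to 0.15), and the second ended without any library (0.0522 to 0.238). The circRNA mmu_circ_0001516 (chromosome 6, 119870128 to 119871046, plus strand, 919 bp) had 162 and 121 CPM at day 0, 612 and 371 at day 4, and 1053 and 545 at day 8. Every later library lay above both day 0 libraries, and days 4 and 8 overlapped. Its log2 fold change at day 8 was 2.12 (SE 0.44, adjusted p = 0.0288), and the call ended when any library was left out (0.0618 to 0.178).

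The circRNA mmu_circ_0001396 (chromosome 5, 119043342 to 119043579, plus strand, 238 bp) is the most abundant one under 250 bp. It had 6195 and 6949 CPM at day 0, 11829.5 and 7800.1 at day 4, and 13842 and 13242 at day 8. Every library was higher at day 8 than at any earlier day, and the day 4 libraries were far apart. The log2 fold change at day 8 against day 0 was 1.04 (SE 0.23, adjusted p = 0.0353), and it ended as a call without either library of day 0 or day 8 (up to 0.303) and with a pseudocount of 0.1 CPM (0.052). The call also ended without the mean-variance trend (adjusted p = 0.128). The 2 longer circRNAs that overlap mmu_circ_0001396 together had 742 and 726 CPM at day 0, 1684 and 1733 at day 4, and 2107 and 1848 at day 8. The short circle was thus the more abundant product of its locus at every day, and the longer ones were higher in all later libraries too.

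Most members called higher at day 8 against day 0 were listed at 0 at day 0 (25 of 28), and the following are among them. An entry on chromosome 17 (28644181 to 28644414, minus strand, 234 bp, no circBase identifier) had no reads listed at day 0, had 2 reads and 0 at day 4, and had 833 and 924 CPM at day 8, from 34 and 39 reads. It was called against day 0 (adjusted p = 0.00965) and against day 4 (0.0192). The first call ended without either day 0 library (up to 0.056), and the second without day 4 replicate 2 or either day 8 library (up to 0.0772). With a pseudocount of 1 or 0.1 CPM neither was called (up to 0.265). An entry on chromosome 3 (94743568 to 94744148, plus strand, 581 bp) had 11 and 2 reads at day 4 and 62 and 60 at day 8, after 0 at day 0 (adjusted p = 0.00362 against day 0 and 0.0308 against day 4). Both calls ended without either library of day 0 or day 8 (up to 0.0995 and 0.276). The one against day 4 also ended with pseudocounts of 1 or 0.1 CPM (0.244 and 0.487), with the 10-read filter (0.0881), in the fit of days 4 and 8 alone (0.0785) and without the mean-variance trend (0.0669). The entry on chromosome 10 (127713542 to 127714274, plus strand, 733 bp) had 9 and 7 reads at day 8 and was listed at 0 in the other 4 libraries (adjusted p = 0.00316 against day 0 and 0.00365 against day 4). Both calls held with any library left out, and the one against day 4 ended in the fit of days 4 and 8 alone (0.0647) and without the mean-variance trend (0.0628).

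Among members called lower at day 8, the following 4 had their lowest mean at day 8. The circRNA mmu_circ_0014392 (chromosome 7, 81649063 to 81649528, minus strand, 466 bp) had 1091 and 823 CPM at day 0, 349.9 and 322 at day 4, and 245 and 71.1 at day 8. The libraries of the 3 days did not overlap, and the log2 fold change at day 8 against day 0 was -2.45 (SE 0.49, adjusted p = 0.0267). Of the 6 fits that left out 1 library, it was called only in the one without day 8 replicate 1 (up to 0.202). It also ended with pseudocounts of 1 or 0.1 CPM (0.0626 and 0.074). The circRNA mmu_circ_0004996 (chromosome 14, 121500740 to 121501404, plus strand, 665 bp) went from 394 and 508 CPM at day 0 to 65.6 CPM in day 4 replicate 1, and day 4 replicate 2 and both day 8 libraries listed it at 0 (adjusted p = 0.033). This call ended without either library of day 0 or day 8 (up to 0.187) and with pseudocounts of 1 or 0.1 CPM (0.101 and 0.123). Chosen after its values were seen, mmu_circ_0000945 (chromosome 19, 30113554 to 30113787, plus strand, 234 bp) had 3248 and 3245 CPM at day 0, 1203 and 1981 at day 4, and 882 and 1303 at day 8. Its later days overlapped and lay below both day 0 libraries. Also chosen in this way, mmu_circ_0000891 (chromosome 18, 651 bp) had 626 and 484 CPM at day 0, 284 and 495 at day 4, and 98.0 and 71.1 at day 8. Both were called at day 8 against day 0 (log2 fold change -1.56, SE 0.30, adjusted p = 0.0231, and -2.22, SE 0.41, adjusted p = 0.0193), and both calls ended without either library of day 0 or day 8 (up to 0.199 and 0.122).

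**Figure D4:**
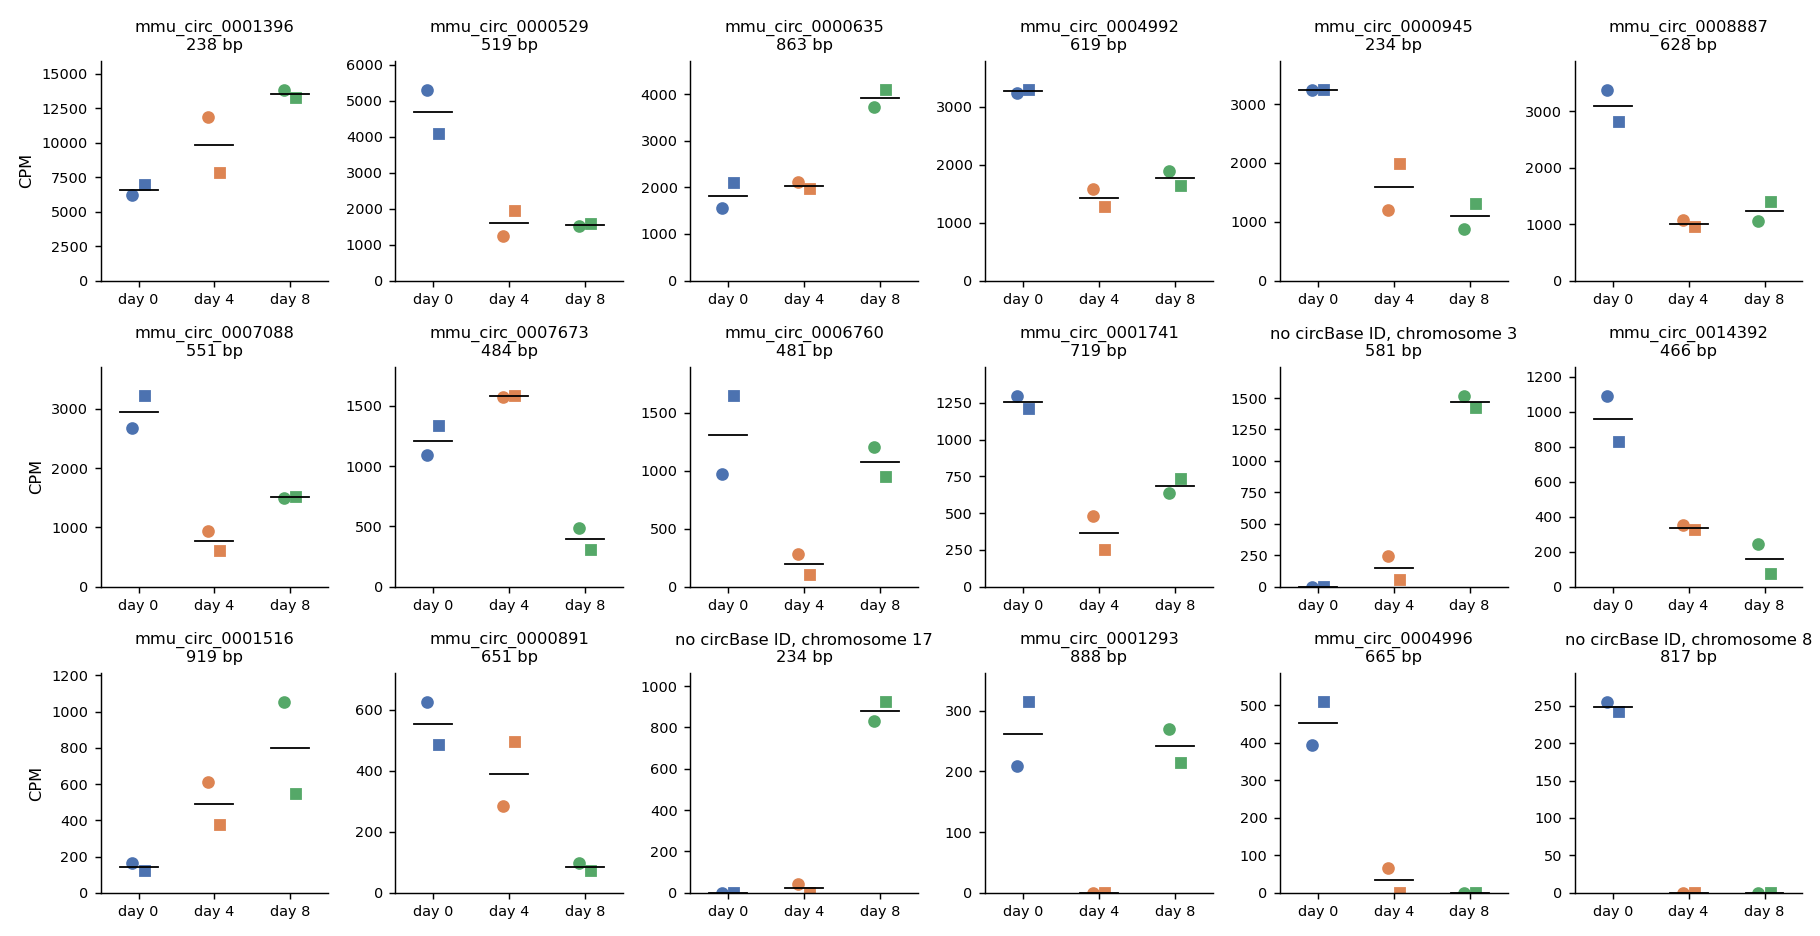
Each panel plots CPM by day for 1 of the 18 short circRNAs called in at least 1 comparison under the 10-read filter, ordered by mean CPM, with its span. Circles are replicate 1, squares replicate 2 and lines means, and each panel has its own vertical axis from 0. Both day 0 libraries lie above the other 4 in 9 panels, both day 4 libraries in 1 and both day 8 libraries in 4, and days overlap at the top in the other 4. The members on chromosomes 3 and 17 without a circBase identifier are at 0 at day 0.

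Day 8 against day 4 spans the maturation phase. Here more short circRNAs were higher than lower. Of 42 called, 30 were higher and 12 lower at day 8, where the background was 9.56% (6.02% higher and 3.54% lower). Of the 30, 25 were listed at 0 in both day 4 libraries, and 36 of the 42 had a mean under 10 reads. Libraries did not overlap for 130 higher and 65 lower ones, against a background of 24.6% and 22%. The median log2 fold change was 0.25 for short circRNAs and 0.04 for all. Without day 4 replicate 1 these medians were 0.14 and 0, and without day 4 replicate 2 they were 0.17 and 0. The 10-read filter left 2 of 146 called, 1 in each direction (background 1.02%, with 0.731% higher and 0.292% lower), and 0 or 1 when any library was left out. Without the mean-variance trend limma called 0 of the 414, with 84 at an unadjusted p under 0.05. The comparisons share libraries, so the fall at day 4 and the rise after it are not independent of one another.

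The late fall of mmu_circ_0007673 (chromosome 19, 28740243 to 28740726, minus strand, 484 bp) stood in this comparison. It had 1091 and 1332 CPM at day 0, 1574 and 1585 at day 4, and 490.0 and 308 at day 8. Day 4 was the highest and day 8 the lowest, with no overlap between days. The log2 fold change was -1.91 against day 4 (SE 0.27, adjusted p = 0.00739) and -1.53 against day 0 (SE 0.27, adjusted p = 0.0158), with no call between days 4 and 0 (adjusted p = 0.472). The call against day 4 ended without either day 4 library (up to 0.0883). The call against day 0 held without day 8 replicate 1 and ended without any other library (up to 0.12).

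Of the 10 most abundant short circRNAs, 6 were called in no comparison. The circRNA mmu_circ_0000604 (chromosome 15, 61938703 to 61939020, plus strand, 318 bp) had 14084 and 12712 CPM at day 0, 13666 and 15674 at day 4, and 9775 and 10328 at day 8. The day 8 libraries were the lowest and days 0 and 4 overlapped, and no comparison was called (adjusted p 0.103 to 0.666). Its 4 longer overlapping circRNAs, all sharing an end with it, had 1552 and 1164 CPM at day 4 and between 539 and 853 CPM at the other days. The circRNA mmu_circ_0001704 (chromosome 8, 87295683 to 87296214, minus strand, 532 bp) had 10279 and 9080.1 CPM at day 0, 8943 and 9113 at day 4, and 13939.6 and 11134 at day 8. It was highest at day 8 with no call (adjusted p 0.192 to 0.808). An entry on chromosome 3 (78770324 to 78770697, minus strand, 374 bp, no circBase identifier) had 4664 and 4237 CPM at day 0, 5510.2 and 8939 at day 4, and 4704 and 4690.3 at day 8, where day 4 replicate 2 stood apart and no comparison was called (adjusted p 0.194 to 0.895).

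The other 3 of these 6 were less abundant. The circRNA mmu_circ_0000964 (chromosome 19, 57453039 to 57453665, plus strand, 627 bp) had 3318 and 3414 CPM at day 0, 2012 and 2129.6 at day 4, and 3503 and 2866 at day 8. It was lowest in both day 4 libraries, without a call (adjusted p = 0.07 at day 4 against day 0). The circRNA mmu_circ_0014773 (chromosome 8, 3258383 to 3258934, minus strand, 552 bp) had 1694 and 1889 CPM at day 0, 1859 and 1931 at day 4, and 3209 and 2535 at day 8, and both day 8 libraries were the highest without a call (adjusted p = 0.0856 against day 0). The circRNA mmu_circ_0001505 (chromosome 6, 113358899 to 113359334, plus strand, 436 bp) had 2019 and 2276 CPM at day 0, 1815 and 1956 at day 4, and 2205 and 2321 at day 8, and no comparison was called (adjusted p 0.47 to 0.832). A p over the threshold does not show that the days are equal, since 2 libraries a day leave little power.

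**Figure D5:**
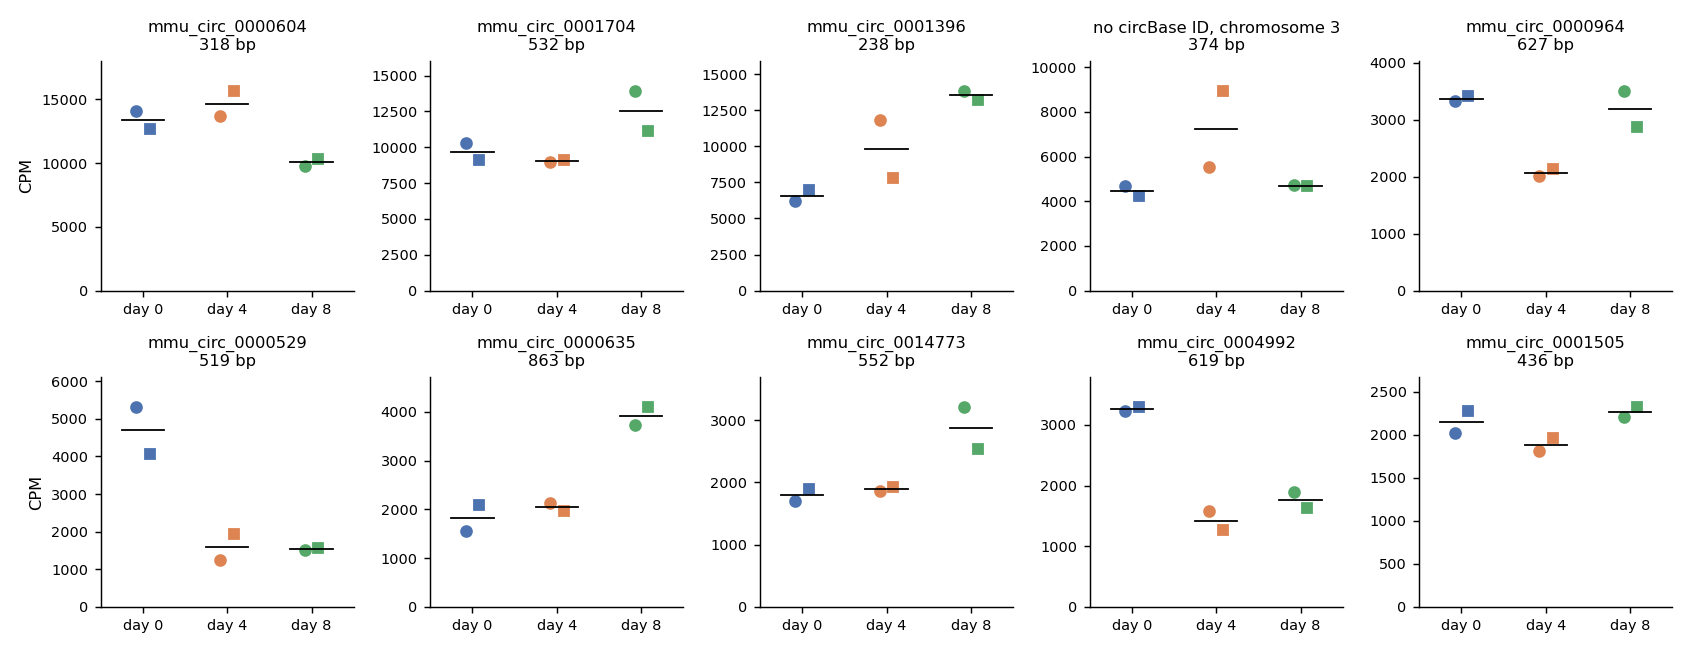
Each panel plots CPM by day for 1 of the 10 short circRNAs with the highest mean over the 6 libraries, with its span. Circles are replicate 1, squares replicate 2 and lines means, and each panel has its own vertical axis from 0. The panels of mmu_circ_0000529 and mmu_circ_0004992 fall after day 0, and those of mmu_circ_0001396 and mmu_circ_0000635 are highest at day 8.

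Short circRNAs that overlap one another were few. There were 18, in 9 groups of 2 on the same strand. The group with the highest summed level, mmu_circ_0016235 and mmu_circ_0016236 on chromosome X (166364886 to 166365601, plus strand), had 719 and 1065 CPM at day 0, 481 and 446 at day 4, and 294 and 308 at day 8. On chromosome 18, the sum of mmu_circ_0007389 and mmu_circ_0000874 was 1044 and 702 CPM at day 0, 262 and 545 at day 4, and 245 and 379 at day 8. There too, the sum of mmu_circ_0000891 and mmu_circ_0007479 was 882 and 557 CPM at day 0, 284 and 619 at day 4, and 98.0 and 71.1 at day 8. In all 3 groups both day 0 libraries lay above both day 8 libraries, and their sums were not tested. Groups with lower sums were not all alike. The sum of mmu_circ_0011942 and mmu_circ_0011943 on chromosome 5 was 0 and 508 CPM at day 0 and 563 and 521 at day 8. That of mmu_circ_0015602 and mmu_circ_0001768 on chromosome 9 was 46.4 and 0 CPM at day 0 and 171 and 308 at day 8. All remaining groups were higher in both day 0 libraries than in both of day 8.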

How the data were processed

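The build mm9, HISAT2 2.2.0 and FastQC 0.11.9 are named in the submitters' processing notes. No source used here names the circRNA caller. The authors deposited 1 table with a CPM column per library, each normalized to the summed reads of the listed circRNAs. Positions are mm9, counted from 1. No mm9 annotation or genome was used, so host genes, the gene and marker lists and sequences were not analysed here. No count test was run on these CPM values, whose smallest is 2 inferred reads. Values were fitted as log2(CPM + 43.7), the smallest non-zero value, over all 6 libraries with a mean-variance trend in limma 3.58.1 (R 4.3.3), and adjusted over all 3869 circRNAs. Fold changes on this scale understate low levels. The fitting was tested on simulated data.

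The members and lists were chosen with earlier results of these data known. Named circRNAs were the 10 with the highest mean and, per comparison, up to 6 called per direction with the largest fold change, no overlap between days and a mean above 162 CPM in the higher day. Also named were the 3 shortest, those at the limit and the 3 overlapping groups with the highest level. Alternatives were other pseudocounts, filters, scalings, span limits, a replicate block and leaving out each library. Same-numbered libraries did not deviate together (correlations -0.0136, -0.00671 and -0.00705), so the replicate numbers were not treated as pairs.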

Additional observations from a re-analysis of the deposited data

How the results depend on the processing

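The counts of called short circRNAs fell with the 10-read filter and without the mean-variance trend, and the cause was not tested. For day 4 against day 0, day 8 against day 0 and day 8 against day 4, the main counts were 47, 67 and 42 of 414. With a span under 500 bp they were 23, 30 and 21 of 188, and under 2000 bp the last 2 were 110 and 73 of 758. These span limits used the same fit, so their counts depend on the number of members and are no test of the calls. With 10 or more reads in 2 or more libraries the counts of the 3 comparisons were 8, 14 and 2 of 146. Without the mean-variance trend they were 0, 30 and 0 of 414 (limma, 108, 127 and 84 at an unadjusted p under 0.05). In the fit of days 0 and 4 alone 4 were called. Leaving out each library gave 31 to 39, 45 to 64 and 29 to 42. Under this 10-read filter, leaving out each library, an alternative chosen after seeing the data, gave 0 to 1, 1 to 13 and 0 to 1, and fits of the 2 days alone gave 0 for day 4 against day 0 (27 at an unadjusted p under 0.05) and 0 for day 8 against day 4 (25). With the replicate block, which is not a pairing supported by the labels, 46, 63 and 39 were called. Of the 37 calls of named circRNAs, the block ended 6. Pseudocounts and scaling factors kept every count within 1.5 times, while pseudocounts of 1 or 0.1 CPM ended 11 of those 37 calls and scaling 2. The share of CPM on short circRNAs kept its direction under every alternative run. Its difference at day 4 minus day 0 was -3.32 percentage points, and -0.756 under 500 bp, -3.93 under 2000 bp, -2.38 with the 10-read filter, -2.34 for members overlapping no longer circRNA and -3.98 without the 4 most abundant. At day 8 minus day 0 it was -1.56, and under the same settings -0.636, -2.34, -1.16, -0.997 and -2.24, with -1.23 without the most abundant and -2.08 without the 10 most abundant. At day 8 minus day 4 it was 1.75, and 0.120 under 500 bp, 1.22 with the 10-read filter, 2.22 without the most abundant, 1.34 for members overlapping no longer circRNA and 1.28 without the 10 most abundant. Leaving out sets of the 4 or 10 most abundant was chosen after seeing the data. The level of short against longer circRNAs within a library, -0.13 on the scale of log2(CPM + 43.7), turned to 0.00114 under 2000 bp and to 0.0232 with the 10-read filter. In loci with both kinds, the share at day 8 minus day 0, -0.548 percentage points, turned to 0.596 without the locus with the highest sum and ranged from -1.42 to 0.320 when each library was left out, above 0 without day 8 replicate 2. A mean under 10 reads was found in 313 of the 414 short circRNAs (75.6%) and in 76.2% of the longer ones, and the part of depth in the number of calls was not tested.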
